A study of Homo sapiens with 2 samples.

Results

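AP-1 is a transcription factor assembled from pairs of FOS, JUN and ATF proteins, and its genes were examined here together with the zinc finger genes EGR1 and EGR2 in doxorubicin-resistant breast cancer cells. The 10 genes are FOS, FOSB, FOSL1, FOSL2, JUN, JUNB, JUND, ATF3, EGR1 and EGR2, taken by symbol from the 23368 gene symbols of the count files. They were selected on their CPM (counts of the gene per 1000000 counts of the library) and on its ratio between the libraries, because FOS differed about 10-fold, so that these values are given as a description and no test was run on them. The bulk RNA-seq was of SUM159, a line of triple-negative breast cancer, grown attached as a monolayer, in which, per the labels, resistance had been raised by long treatment with rising doses of doxorubicin, an anthracycline that damages DNA. Their labelled genotype is Wt, their medium held serum, insulin and hydrocortisone, and the methods describe exposure to the drug followed by recovery without it, whereas the sources used here do not give the time between the last exposure and lysis. The 2 libraries, replicates 1 and 2, are of this 1 condition, and treatment-naïve cells were not analysed here. Whether they were grown as separate cultures is not stated, and any difference between them may be technical.

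Immediate early genes are transcribed within minutes of a stimulus such as serum, a growth factor or cell stress, from factors already present in the cell, and most of their mRNAs decay fast. FOS proteins need a JUN partner to bind DNA, while JUN proteins can also pair with each other. In mesenchymal-like breast cancer cells FOSL1, whose product is Fra-1, is known as a lasting AP-1 component rather than a transient one. EGR1 and EGR2 bind GC-rich DNA through zinc fingers and often respond to the same signals as FOS.

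The promoters of 4 of the genes are shown because these genes had the highest ratios between the libraries (FOS, EGR1 and JUNB) or the lowest (FOSL2). Each is a stretch of 300 bases of GRCh37, the build to which the reads were mapped, from -350 to -51 relative to the start of the canonical transcript in the GENCODE annotation, 5′ to 3′ on the strand of the gene. Capitals mark the CArG box, which serum response factor binds, and TGACGT, the core of the cAMP response element, on either strand. The FOS stretch is chr14:75745181-75745480 (plus strand), that of EGR1 chr5:137800818-137801117 (plus strand), that of JUNB chr19:12901950-12902249 (plus strand) and that of FOSL2 chr2:28615375-28615674 (plus strand).
FOS: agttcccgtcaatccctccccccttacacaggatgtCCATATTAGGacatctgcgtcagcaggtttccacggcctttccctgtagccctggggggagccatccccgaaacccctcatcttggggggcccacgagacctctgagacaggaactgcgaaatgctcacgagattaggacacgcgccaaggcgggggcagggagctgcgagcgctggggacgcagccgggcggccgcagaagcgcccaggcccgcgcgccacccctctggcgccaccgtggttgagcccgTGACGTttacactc
EGR1: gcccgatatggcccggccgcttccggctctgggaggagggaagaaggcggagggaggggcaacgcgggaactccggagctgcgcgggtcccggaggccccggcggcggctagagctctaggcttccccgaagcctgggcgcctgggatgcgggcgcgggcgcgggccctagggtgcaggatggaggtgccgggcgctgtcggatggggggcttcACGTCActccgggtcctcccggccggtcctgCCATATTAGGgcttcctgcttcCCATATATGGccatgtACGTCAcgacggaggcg
JUNB: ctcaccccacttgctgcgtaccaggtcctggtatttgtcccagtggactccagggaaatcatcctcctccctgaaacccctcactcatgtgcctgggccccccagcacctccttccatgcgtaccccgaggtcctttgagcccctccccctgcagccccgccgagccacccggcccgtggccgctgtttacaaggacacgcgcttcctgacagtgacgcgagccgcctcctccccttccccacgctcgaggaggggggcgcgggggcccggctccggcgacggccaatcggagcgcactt
FOSL2: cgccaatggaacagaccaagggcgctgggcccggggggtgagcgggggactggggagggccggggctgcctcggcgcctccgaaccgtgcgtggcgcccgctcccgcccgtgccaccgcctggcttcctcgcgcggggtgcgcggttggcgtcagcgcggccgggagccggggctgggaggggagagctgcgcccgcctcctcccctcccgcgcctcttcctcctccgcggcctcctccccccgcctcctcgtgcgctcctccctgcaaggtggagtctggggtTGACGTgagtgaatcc

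The CArG box of FOS, CCATATTAGG, lies from -314 to -305 relative to the transcript start, and its TGACGT lies from -64 to -59. EGR1 held 5 CArG boxes in the searched window of 500 bases before to 50 after the start, at -418, -380, -364, -105 and -83, of which the last 2 are in the stretch shown. JUNB held neither element in the window, and FOSL2 held TGACGT from -66 to -61 and, in the other orientation, from -418 to -413. Over the 10 genes, a CArG box was found in 4 (FOS, FOSB, EGR1 and EGR2) and TGACGT in 9, all but JUNB. In windows of the same length at 18741 protein-coding genes, 2.42% held a CArG box and 13% TGACGT. The full palindrome TGACGTCA, which contains TGACGT on both strands, was found at FOSB and JUND and in 3.25% of the windows. TGACTCA, the site that AP-1 itself binds, stood at the transcript starts of FOSL1 and FOSL2, and in 6.45% of the windows. The remaining motifs searched on both strands were GCGNGGGCG, the EGR site, found at FOSB, JUND and EGR1 and in 17.1% of the windows, and TATAAA, found at FOS, FOSB, JUNB and ATF3 and in 17.9%. These are matches of letters, and binding was not measured.

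**Figure D1:**
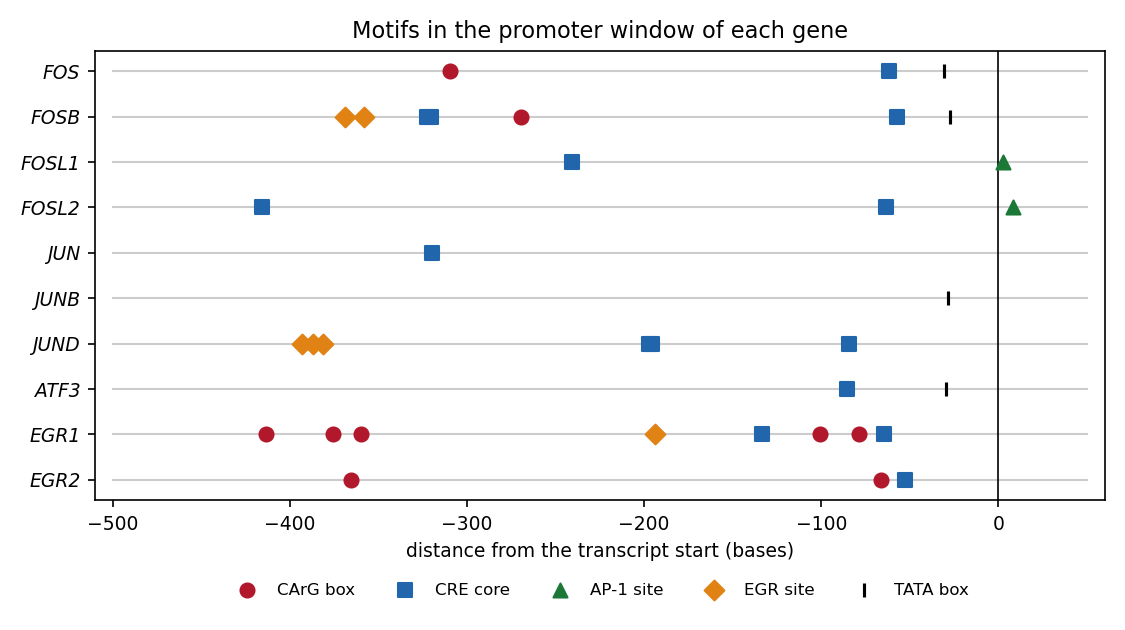
Positions of the motifs in the promoter windows of the 10 genes, as the distance in bases from the start of the canonical transcript, from 500 before to 50 after it. Circles are CArG boxes, squares TGACGT, triangles TGACTCA, diamonds GCGNGGGCG and bars TATAAA, and EGR1 carries 5 of the CArG boxes, EGR2 2, and FOS and FOSB 1 each.

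The genes have few exons and carry the pentamer ATTTA, the unit of the AU-rich elements that speed the decay of mRNAs such as FOS. JUN, JUNB and JUND have a single exon, as have 1.89% of the protein-coding genes that averaged 20 counts or more, whereas the median gene so expressed has 9 exons and the other 7 genes have 2 or 4. All 10 held ATTTA in the 3′ UTR of the canonical transcript, as did 74.2% of 11593 protein-coding genes. FOS held 5 in 806 bp, or 6.20 per kb, where the median was 1.75 per kb, and JUNB held 2 in 500 bp. The genes were spread evenly about that median, with 5 above it and 5 below it (FOSB, FOSL1, JUND, EGR1 and EGR2), of which EGR1 was the lowest with 1 in 1222 bp, or 0.818 per kb. Stretches of 30 bases around these pentamers, in capitals, are shown for the same 4 genes as DNA letters, since FOS and FOSL2 carry them close together and JUNB and EGR1 do not.
FOS: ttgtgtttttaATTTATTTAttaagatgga
FOSL2: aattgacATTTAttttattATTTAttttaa
JUNB: aatatatttgtgtATTTAacagggagggga
EGR1: actgaaaatgtaaATTTAtaaatatattca

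Replicate 1 held 23044084 counts and replicate 2 held 17985508. CPM were computed from these totals, so that 1 count is 0.0434 and 0.0556 CPM. Of the label, only the mesenchymal-like, hormone receptor-low state of the line was checked, and not the resistance: VIM, CD44, FN1, SPARC and CAV1, genes of mesenchymal-like cells, ranged from 715 to 8159 CPM, and ESR1, PGR, CDH1 and EPCAM had at most 13 counts. Of these genes FN1, which encodes fibronectin, was past 2-fold between the libraries, with 2027 CPM in replicate 1 and 5101 in replicate 2. Of the leukocyte markers CD3E had no counts and LYZ had 1 in each library, while PTPRC had 48 and 31 counts and CD68, which is not restricted to leukocytes, had 704 and 357. The leukocyte markers summed to 32.7 and 21.6 CPM, the 3 endothelial markers to 1.09 and 1.11 CPM and the 3 fibroblast markers, nearly all PDGFRB, to 42.2 and 55.0 CPM. The paper used PDGFRB as a mesenchymal marker within SUM159 cells, so that it does not by itself mark fibroblasts here. The common biological coefficient of variation, a pooled value for the spread between the libraries beyond counting error, was 22.02% in edgeR. It was taken over the 12340 genes that averaged 20 counts or more, the minimum used in the study, which all 10 genes passed. The ratio between the libraries fell with transcript length, with a Spearman rho of -0.676 across 11866 genes, which share the same 2 libraries. With exonic length, all exonic bases of a gene, the rho was weaker at -0.549. FN1 has a transcript of 8390 bp, and its log2 ratio of -1.33 became -0.88, short of 2-fold, after subtraction of the trend on exonic length. Of all genes with the minimum count, 3.6% were past 2-fold with replicate 2 higher. Intervals given below are 95% intervals that cover counting error only.

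FOS, which encodes c-Fos, was the gene with the largest ratio of the 10. It lies on chromosome 14 of GRCh37 from 75745529 to 75748933 (plus strand). FOS had 1007 counts in replicate 1 and 80 in replicate 2, which is 43.7 and 4.45 CPM. The libraries lay far apart at this gene, with a ratio of 9.82 (interval 7.82 to 12.5), and its mean of 24.1 ± 27.8 CPM (SD, n = 2) describes neither of them. In the order of ratios of all 12340 genes FOS was number 5. Above it stood RPPH1 and RMRP, the RNA parts of RNase P and RNase MRP, ABCF1, and RN45S, the precursor of ribosomal RNA. Of these 4, only RN45S had a mean count as high as FOS, with 107216 counts in replicate 1 and 8164 in replicate 2, or 0.465% and 0.0454% of the counts. RPPH1, RMRP and RN45S are transcripts without a poly(A) tail, in libraries labelled as polyA RNA, and their part in the ratio of FOS was not tested.

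The 5 genes whose ratio was nearest to that of FOS, the only likeness that 2 libraries allow, were RN45S, ABCF1, KIFC1, EPHB3 and JAM3. ABCF1, of the ABC protein family, had 146 and 11 counts, a 10.4-fold difference. KIFC1, a mitotic kinesin, had 143 and 12 counts, a 9.30-fold difference. EPHB3 and JAM3, genes of an ephrin receptor and a junctional adhesion molecule, had 48 and 5 counts each. All but RN45S were thus far lower in counts than FOS.

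The other FOS family genes did not share the ratio of FOS. FOSB, also an immediate early gene, had 50 counts (2.17 CPM) in replicate 1 and 38 (2.11 CPM) in replicate 2. Its ratio of 1.03 had an interval of 0.660 to 1.61, so that a difference was not detectable at this depth. FOSB (chromosome 19, 45971253 to 45978437, plus strand) lies inside the span of ERCC1 on the opposite strand, but no exonic base is shared.

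FOSL1 and FOSL2, which encode Fra-1 and Fra-2, were higher in replicate 2. FOSL1, on chromosome 11 from 65659520 to 65668044 (minus strand), had 2942 counts (128 CPM) in replicate 1 and 3842 (214 CPM) in replicate 2. FOSL2, on chromosome 2 from 28615315 to 28640184 (plus strand), had 3252 and 4647 counts, or 141 and 258 CPM. The ratio of replicate 1 over replicate 2 was 0.598 (0.569 to 0.627) for FOSL1 and 0.546 (0.522 to 0.571) for FOSL2. FOSL2, with a transcript of 6713 bp, followed the trend across genes in part, since transcripts of that length had a log2 ratio of -0.41 in the trend and FOSL2 had -0.87. FOSL1 went against it: at 1702 bp the trend is 0.26, and FOSL1 had -0.74. Relative to the trend on transcript length, which was added after seeing the data, FOSL1 was -1.003 and FOSL2 -0.46 on the log2 scale. Relative to the trend on exonic length, FOSL1 was -1.09 and FOSL2 -0.72, where the trend for FOSL2 was -0.15.

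The 3 JUN genes, which encode the obligate partners of FOS proteins, were all abundant and higher in replicate 1. JUNB, on chromosome 19 from 12902300 to 12904129 (plus strand), encodes a JUN protein often opposed to c-Jun in growth control and had 7049 and 2593 counts, or 306 and 144 CPM. JUN, on chromosome 1 from 59242517 to 59249720 (minus strand), had 4572 and 2799 counts, or 198 and 156 CPM. JUND, on chromosome 19 from 18390504 to 18392432 (minus strand), whose product is commonly present in resting cells, had 5504 and 3626 counts, or 239 and 202 CPM.

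The JUN genes differed in how far the libraries lay apart. The ratio was 2.12 (2.03 to 2.22) for JUNB, 1.27 (1.22 to 1.34) for JUN and 1.18 (1.14 to 1.24) for JUND. JUND lay on the trend with transcript length, with 0.24 on the log2 scale against 0.22 in the trend, and was -0.09 relative to the trend on exonic length. JUNB was 0.85 above the trend with transcript length and 0.73 above that on exonic length, short of 2-fold. The HOOK2 gene shares 259 exonic bases with JUNB on the opposite strand and had 695 and 407 counts, and since the strand setting of the counting was not given, reads of these bases cannot be assigned.

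ATF3, which encodes a stress-induced bZIP protein that pairs with JUN proteins, was the gene on which the libraries lay closest. It is on chromosome 1 from 212738676 to 212794119 (plus strand) and had 408 and 318 counts, which is 17.7 CPM in both, with a ratio of 1.00 (0.863 to 1.16). Of other stress genes, PPP1R15A, a phosphatase subunit that restores translation, had 101 CPM in replicate 1 and 108 in replicate 2, and ATF4, an effector of the integrated stress response, had 363 and 398 CPM.

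EGR1 stood next to FOS among the 10 genes in its ratio, and EGR2 did not. EGR1, on chromosome 5 from 137801168 to 137804992 (plus strand), had 3945 counts in replicate 1 and 993 in replicate 2, or 171 and 55.2 CPM. Its ratio of 3.10 (2.89 to 3.33) was number 36 among the 12340 genes. EGR2, on chromosome 10 from 64571756 to 64578927 (minus strand) and known for its role in myelinating cells, had 60 and 54 counts, or 2.604 and 3.002 CPM, with a ratio of 0.867 (0.590 to 1.28). An lncRNA gene on the same strand, not listed in the files, shares 145 exonic bases with EGR2.

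**Figure D2:**
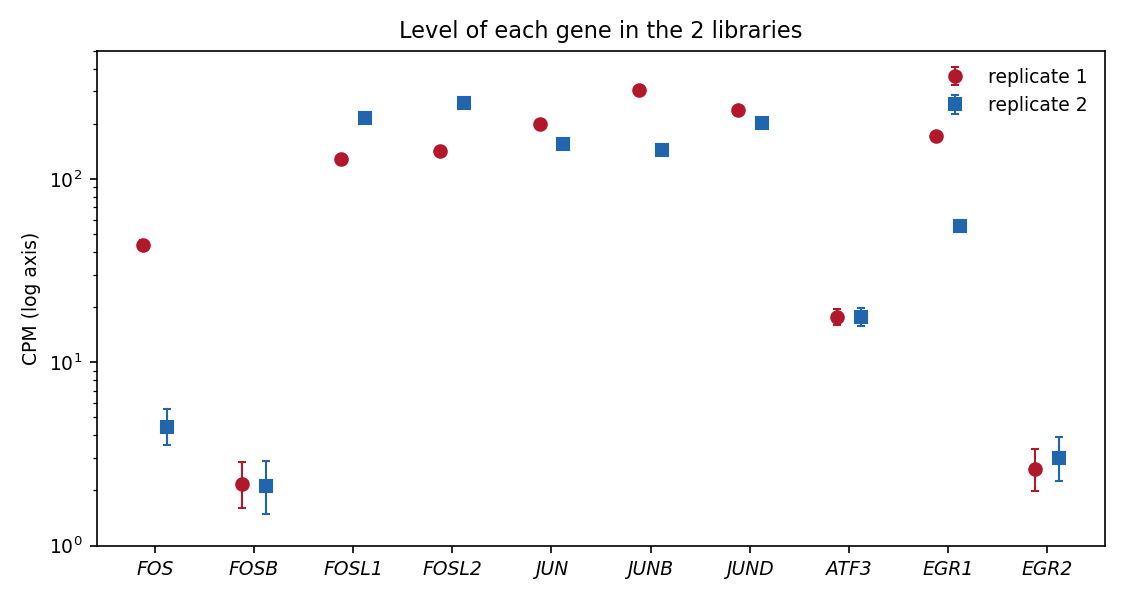
CPM of the 10 genes on a log axis, with circles for replicate 1, squares for replicate 2 and bars for the 95% Poisson interval of each count. The libraries lie apart for FOS at 43.7 and 4.45 CPM and for EGR1 at 171 and 55.2 CPM, and on each other for ATF3 and FOSB.

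In all, 3 of the 10 genes (FOS, EGR1 and JUNB) were more than 2-fold higher in replicate 1 and none was so in replicate 2. Over all genes with the minimum count, 1.39% were past 2-fold with replicate 1 higher and 3.6% with replicate 2 higher, together 4.99%. As the genes were chosen for this ratio, nothing is read from the counts. The median log2 ratio of the 10 genes was 0.14, beside 0.00 over all genes. With the trend on exonic length subtracted, these medians were -0.004 and 0.001. FOS, at 2104 bp, and EGR1, at 3137 bp, kept log2 ratios of 3.11 and 1.63 over the trend with transcript length, beside 3.30 and 1.63 without it. After subtraction of the trend on exonic length, FOS and EGR1 remained past 2-fold with 3.12 and 1.45, JUNB did not with 0.73, and FOSL1 became past 2-fold in the other direction with -1.09. Over all genes, 172 were past 2-fold with replicate 1 higher and 444 with replicate 2 higher, against 119 and 202 after this subtraction and 134 and 121 after that of the trend on transcript length.

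**Figure D3:**
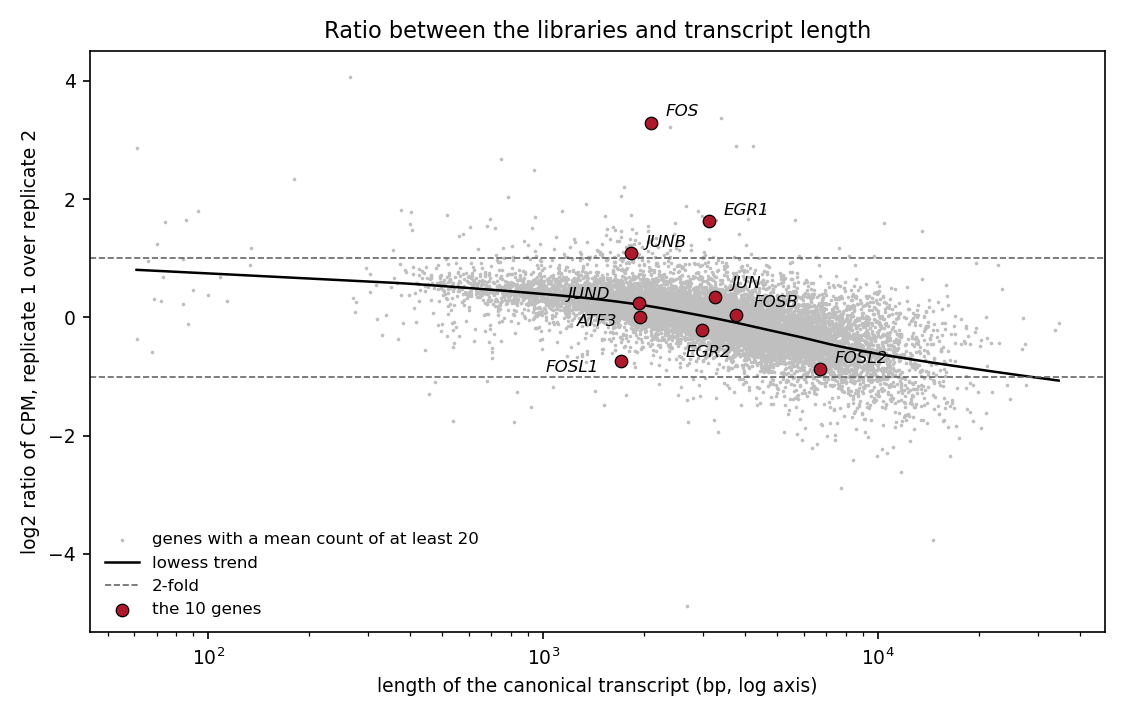
Log2 ratio of CPM, replicate 1 over replicate 2, against the length of the canonical transcript in bp on a log axis, for each gene that averaged 20 counts or more and has an annotated transcript (grey) and the 10 genes (red). The line is the lowess trend and the dashed lines mark 2-fold. FOS at 3.30 and EGR1 at 1.63 lie above the trend, while FOSL1 at -0.74 lies below the trend for its length.

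Levels of different genes were compared per length, as CPM per kb of exon. The order of the means was JUNB with 123 ± 62.5, JUND with 114 ± 13.7, FOSL1 with 90.4 ± 32.2, JUN with 48.8 ± 8.35, EGR1 with 36.1 ± 26.1, FOSL2 with 27.9 ± 11.6, FOS with 7.56 ± 8.71, ATF3 with 4.43 ± 0.00430, EGR2 with 0.756 ± 0.0761 and FOSB with 0.386 ± 0.00725 (SD, n = 2 each). An SD of 2 libraries can fall below counting error. For ATF3 it was 0.0172 CPM, while the counting interval in replicate 1 ran from 16.0 to 19.5 CPM. Neighbours whose ranges over the libraries overlapped were JUNB and JUND, JUND and FOSL1, JUN and EGR1, EGR1 and FOSL2, and FOS and ATF3. By this rule they did not differ beyond their spread. Of these pairs only JUN and EGR1 kept their order in both libraries, with 54.7 and 54.6 in replicate 1 and 42.9 and 17.6 in replicate 2. From replicate 2 alone the order began with FOSL1, JUND and JUNB, and FOS fell behind ATF3. In both libraries FOSB and EGR2 were the lowest.

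The FOS family was made up mostly of FOSL1 in both libraries. Per length, FOSL1 took 66.7% of the family in replicate 1 and 74.9% in replicate 2, and FOSL2 took 19.4% and 23.9%. FOS took 13.5% in replicate 1 and 0.924% in replicate 2, and FOSB at most 0.385%. The JUN family summed to 346 and 226 CPM per kb, against 101 and 151 for the FOS family. Within it JUNB led in replicate 1 with 48.4%, followed by JUND with 35.8%, while in replicate 2 JUND led with 46.2%, followed by JUNB with 34.8%. The share of JUN was 15.8% and 19.0%. EGR1 made up 98.7% and 95.6% of the summed EGR1 and EGR2 level. A bulk level cannot tell few cells with much of a transcript from many cells with little.

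**Figure D4:**
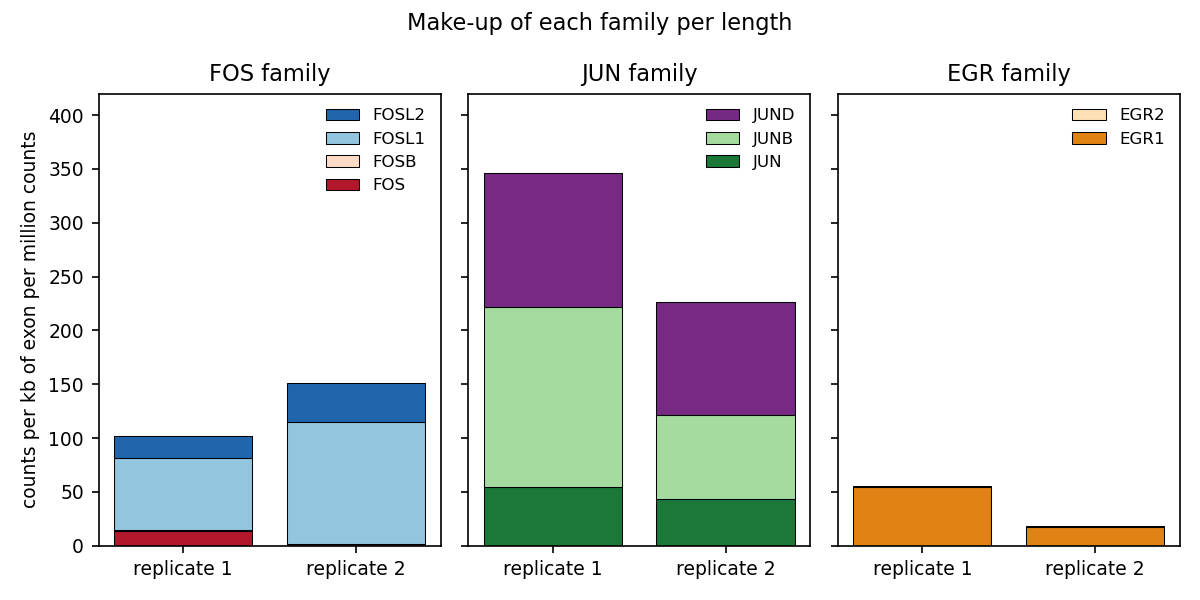
CPM per kb of exon in replicates 1 and 2, stacked by gene for the FOS, JUN and EGR families. FOSL1 fills most of the FOS bars, with 66.7% and 74.9%, and FOS is visible only in replicate 1, with 13.5%.

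Other immediate early genes did not reach the ratios of FOS or EGR1. Of 52 listed genes, 50 averaged 20 counts or more, and none of them was past 2-fold between the libraries, beside 4.99% of all genes. Of the 50 genes 35 were higher in replicate 1, as were 50.3% of all genes with the minimum count. Their log2 ratios ranged from -0.82 to 0.79. Their transcripts were shorter, with medians of 2485 bp for the transcription factor genes and 2477 bp for the rest, against 3384 bp over all genes. Among the transcription factor genes, of which 21 of 22 had the minimum count, the median log2 ratio was 0.15. It was 0.12 with the trend on exonic length subtracted. The highest in level was CEBPB, a bZIP factor of inflammation, with 450 CPM in replicate 1 and 325 in replicate 2, and the lowest was EGR4, an EGR1 relative, with 4 and 13 counts. Among the genes of other functions, of which 29 of 30 had the minimum count, the median was 0.08, and 0.12 with that trend subtracted. MCL1, which encodes an inhibitor of apoptosis, was the highest with 386 and 454 CPM, and IER3 the lowest with 10 and 7 counts.

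Some of these genes, from either end of this range and as familiar examples, were chosen for mention after their values were seen. IER2, an immediate early gene of nuclear function that serum induces along with FOS, had 117 CPM in replicate 1 and 67.6 in replicate 2, a 1.73-fold difference. ZFP36, the gene of tristetraprolin, which binds AU-rich elements and starts mRNA decay, had 39.3 and 23.0 CPM. DUSP1, a phosphatase that switches MAP kinases off, had 54.0 and 36.6 CPM. At the other end SIK1, a salt-inducible kinase, had 21.7 CPM in replicate 1 and 38.2 in replicate 2. The nuclear receptor gene NR4A1, often induced together with FOS, had 23.3 and 21.1 CPM, and MYC had 396 and 364 CPM. In all, 8 of the 50 genes were at least 1.5-fold higher in replicate 1, as were 6.52% of all genes with the minimum count, and 2 of the 50, SIK1 and the cytokine gene LIF, were so in replicate 2, as were 12.1% of all genes. After subtraction of the trend on exonic length 3 of the 8 (IER2, IL6 and PTGS2) were still at least 1.5-fold higher in replicate 1, and 5 were not (ZFP36, CEBPD, ID1, ID3 and RHOB). With this subtraction 4 of the 50 genes were past that fold, beside 5.7% of all genes. The trend on transcript length was not subtracted for these genes, and IL6 has 4321 exonic bases but a transcript of only 1127 bp.

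Of the upstream regulators with the minimum count none was past 2-fold, beside 4.99% of all genes with that count. Of 25 genes that transmit signals to these promoters 24 had the minimum count, and their median log2 ratio was -0.23 at a median transcript length of 4226 bp, where the median over all genes was 3384 bp. With the trend on exonic length subtracted, the median log2 ratio was -0.09. Nearest to 2-fold was MKL2, with a log2 ratio of -0.99, or -0.55 with that trend subtracted. SRF, the factor of the CArG box, had 100 CPM in replicate 1 and 145 in replicate 2. The kinase gene MAP2K2 (MEK2) was the highest with 308 and 220 CPM, and MAPK10 (JNK3), mainly a neuronal kinase, had 1 and 0 counts. Of 16 other AP-1 and related bZIP genes 14 had the minimum count, and 1 of these was past 2-fold, beside the same 4.99% of all genes. This was MAF, a large MAF factor, with 236 and 50 counts, or 10.2 and 2.78 CPM. In this list ATF4 was the highest, and the lymphocyte factor BATF had no counts.

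Of 17 genes known as AP-1 targets in other systems, 14 had the minimum count, with a median log2 ratio of 0.07. MMP1, an interstitial collagenase whose promoter is a classical AP-1 target, was the one past 2-fold, beside 4.99% of all genes with the minimum count. It had 190 counts in replicate 1 and 65 in replicate 2, or 8.25 and 3.61 CPM. Its log2 ratio of 1.19 became 0.96, short of 2-fold, after subtraction of the trend on exonic length. The hyaluronan receptor CD44 was the highest, with 1156 and 1140 CPM. IL6, an inflammatory cytokine, had 244 and 146 CPM, and PLAU, the gene of urokinase, had 449 and 445 CPM. MMP9 and MMP13 had no counts, and with a limit of 3 counts their level could be at most 0.130 CPM (replicate 1) and 0.167 CPM (replicate 2), while IVL, a gene of keratinocytes, had 0 and 1.

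**Figure D5:**
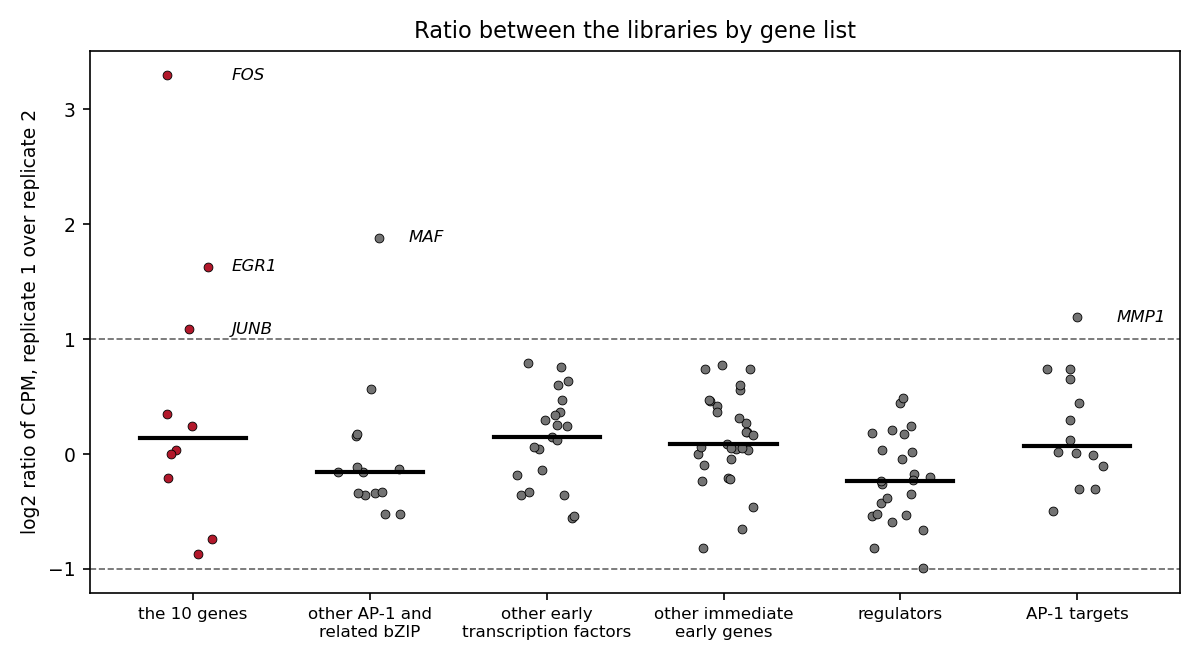
Log2 ratio of CPM, replicate 1 over replicate 2, for each gene that averaged 20 counts or more in the 6 lists, with horizontal bars at the medians and dashed lines at 2-fold. FOS, EGR1 and JUNB lie above 2-fold among the 10 genes, MAF and MMP1 in the other lists, and none of the 50 other immediate early genes does. Some genes are shared between lists.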

How the data were processed

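Bulk RNA-seq of 2 libraries of doxorubicin-resistant SUM159 cells was examined. The authors deposited raw counts per gene symbol for both libraries. According to the methods and the submitters' processing notes, reads were checked with FastQC, mapped to hg19 with HISAT2 and counted inside genes with HTSeq. The notes also list deepTools. For the versions, the annotation and the strand option of the counting, the entry is: not given in the sources used here. Per the labels, polyA RNA was made into directional libraries.

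The genes and lists were chosen with earlier results of these data known. The lists are not independent sets, since MAFF, CREB1, SRF, IL6, PTGS2 and CD44 each belong to several of them. All 10 genes were named. Of each list the highest gene, the lowest above 0 and those past 2-fold were named, as well as the 5 genes nearest to FOS in ratio. Some genes that this rule or the marker lists hold are not reported here. Others are named where the text says so, or with their list as known examples chosen after their values were seen. As 1 condition was held, no test was run.

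CPM used the library total, 23044084 and 17985508. Symbols were matched to GENCODE v44 on GRCh37 (21208 of 23368, 90.8%, of which 1895 by an older symbol from RefSeq). Promoters were read from GRCh37. Exact binomial and Poisson intervals cover counting error only. Trends were lowess fits (fraction 0.3) of the log2 ratio on log2 length. The trend and the dispersion were tested on simulated data first. Alternatives covered scaling, pseudocount, minimum count, length and each library left out. Python 3.11.15, numpy 2.4.6, pandas 2.3.3, scipy 1.17.1, statsmodels 0.14.6, pysam 0.24.0, matplotlib 3.10.9, R 4.3.3, edgeR 4.0.16 and DESeq2 1.42.0 were used.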

Additional observations from a re-analysis of the deposited data

How the results depend on the processing

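The log2 ratio of FOS, 3.30, stayed between 3.11 and 3.30 under TMM, DESeq2 size factors, a pseudocount of 0.5 CPM and subtraction of the trend on exonic length or, an alternative added after seeing the data, on transcript length. Each of the 40 levels recomputed with another scaling or 1 library was within 1 SD of the mean, which with 2 libraries any single library is by construction. Of 45 recomputed ratios of the other 9 genes, 34 lay inside the counting interval and 11 outside, all 11 after subtraction of a length trend. The number of genes past 2-fold with replicate 1 higher, 172, became 457 at a minimum mean count of 5, 53 at 100 and 697 with 1 count in each library, as more or fewer genes of low counts entered. With replicate 2 higher, 444 became 873 with 1 count in each library, 202 after subtraction of the trend on exonic length and 121 after that on transcript length. The order per length held 4 of 10 ranks without replicate 1 and 10 of 10 without replicate 2. No paired analysis was possible because the libraries are replicates of 1 condition. Depth limits the precision of FOSB, with 50 and 38 counts, and EGR2, with 60 and 54, most among the 10 genes.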
